A study of Homo sapiens with 12 samples.

Results

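The genes described here encode the actin cytoskeleton and the machinery that pulls on it: actins, the myosin II motor with its light chains and kinase, tropomyosins and other filament-binding proteins, crosslinkers, upstream regulators of contraction, and the linkers of filaments to the plasma membrane. A gene was a member where its name in the deposited count and FPKM tables equalled one of 37 listed names, whatever its level. All 37 names were found, each once, among the 58735 genes of the tables, and all 37 passed the filter on low counts that left 19342 genes for testing. Messenger RNA was read in 2 human liver cancer cell lines of hepatocellular origin, Huh7 and HLF, both wild-type per the labels and grown in the same serum-containing medium. In Inject-Embed culture a cell suspension was injected into set Matrigel, a basement membrane gel. In Mix-Embed culture cells stirred into Matrigel were laid over set gel, and 2D cells grew as a flat layer. The 6 groups, of 2 biological replicates each, were Huh7 in Inject-Embed, Mix-Embed and 2D and HLF in Inject-Embed, Mix-Embed and 2D, which gave 12 libraries. Inject-Embed wells received 4000 Huh7 or 2000 HLF cells and Mix-Embed wells 20000 or 10000. Gel cultures were harvested between day 6 and day 8, and 2D cells on day 2 at about 90% confluence, so gel, days in culture and cell number cannot be told apart. The RNA came from whole cultures, in which fewer cells of a kind and less RNA per cell cannot be told apart either.

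Actin monomers assemble into filaments, and bipolar filaments of myosin II, built from heavy chains, essential light chains and regulatory light chains, slide them past each other to make tension. The small GTPase RHOA drives this through the ROCK kinases, which, with the myosin light chain kinase MYLK, keep the regulatory light chain phosphorylated. Alpha-actinins and filamins hold filaments in bundles and webs, and tropomyosins, calponins, transgelins and caldesmon line them and tune the access of myosin. Transcription of many of these genes is coupled to filament assembly, because free actin monomers hold back the MRTF coactivators of SRF, the factor that binds the CArG box. In hepatocytes actin lies mainly at the cell cortex and around bile canaliculi, while contractile genes such as ACTA2 and TAGLN are known from activated stellate cells and smooth muscle.

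Because SRF binds CArG boxes, the promoters of the members were searched for that motif, which reads as itself on the opposite strand, in the RefSeq promoter windows of build GRCh38.p14. Windows were found for 34 of the 37 genes, ACTB, TAGLN and MYL9 being the others. A CArG box stood in 8 of 57 member windows (14.0%), belonging to 8 of 34 genes (23.5%), against 454 of 35116 windows (1.29%) and 438 of 27305 genes (1.6%) over all promoters. The 8 genes were ACTG1, CNN2, MYLK, TPM4, ACTN1, FLNA, ROCK2 and SRF. A match is a run of letters and does not show that the factor binds there. Of the 5 members lower in all 4 comparisons with 2D, CNN2 and FLNA had a box, CALD1 and MYH10 had none, and MYL9 had no window. CNN1, which fell in HLF, had no box in its window, while ROCK2 and SRF, called in none of the 4, had boxes. Boxes outside the windows were not searched for, so a gene without a match may still have one. A link between the box and the response was not tested. ACTN1, whose calls also differed between the lines, and ROCK2 had boxes that are not shown here. The stretches below, with the boxes in capitals, are for CNN2 and FLNA, which fell in every comparison of a gel culture with 2D. The others are for ACTG1, MYLK and TPM4, whose calls differed between the lines or cultures, and for SRF itself.
CNN2 (chr19:1026499-1026548, plus strand): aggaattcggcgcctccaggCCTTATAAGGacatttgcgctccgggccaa
FLNA (chrX:154374699-154374748, minus strand): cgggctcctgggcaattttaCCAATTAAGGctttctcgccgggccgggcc
ACTG1 (chr17:81512864-81512913, minus strand): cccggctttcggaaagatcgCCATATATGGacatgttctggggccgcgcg
MYLK (chr3:123620613-123620662, minus strand): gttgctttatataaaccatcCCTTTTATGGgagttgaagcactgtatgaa
TPM4 (chr19:16067345-16067394, plus strand): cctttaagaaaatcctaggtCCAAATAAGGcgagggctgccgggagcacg
SRF (chr6:43171219-43171268, plus strand): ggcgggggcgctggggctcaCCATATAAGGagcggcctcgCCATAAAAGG
Counted from the annotated start of each window, the box began at base -94 in ACTG1, MYLK and FLNA and at base -89 in CNN2. SRF held a pair of boxes that began at -30 and -10. The MYLK window, at chr3:123620499-123620798, lies inside the gene (chr3:123610049-123884331, minus strand), close to its end. That box therefore does not lie at the outermost start of MYLK.

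Library totals ran from 12325877 to 16041906 counts, and the first principal component, which held 91.6% of the variance, parted Huh7 from HLF. The 6 hepatocyte markers summed to between 22724 and 28143 CPM (counts scaled to library size by TMM) in Huh7 libraries. In HLF they summed to 5.12 to 9.97 CPM in the gel cultures and 0.693 to 0.929 CPM in 2D, with TTR at 0 counts in all 6 libraries. In HLF that sum was nearly all AFP, at 4.86 to 9.7 CPM in gel and 0.252 to 0.867 CPM in 2D. The 5 mesenchymal markers summed to 131 to 146 CPM in Huh7 gel libraries against 186 to 205 CPM in Huh7 2D, and to 1485 to 1666 CPM in HLF gel libraries against 1328 to 1354 CPM in HLF 2D, and the 5 stellate cell and fibroblast markers to 3.24 to 8.77 CPM in Huh7 and 308 to 333 CPM in HLF. Of the smooth muscle genes, MYOCD and ACTG2 had no counts in Huh7 and stayed under 0.38 CPM in HLF, and DES stayed at or under 0.252 CPM in every library. MYH11, the smooth muscle myosin, had 0.7 to 1.32 CPM in Huh7 gel libraries against 0.269 and 1.8 CPM in Huh7 2D, and 1.84 to 2.2 CPM in HLF gel libraries against 2.6 and 4.35 CPM in HLF 2D. SMTN, at 65.6 to 160 CPM, made most of the sum of 66.9 to 165 CPM over that list of 5. The 4 endothelial markers summed to at most 13.3 CPM and the 4 macrophage markers to at most 0.82 CPM. Mitochondrial ribosomal RNA took 0.468% to 0.597% of counts in gel libraries and 0.293% to 0.315% in 2D libraries. Among single markers, ALB averaged 1169 CPM in Huh7 Inject-Embed and 661 in Mix-Embed against 357 in 2D, and VIM 43.1 and 61.2 CPM against 105 in the same cultures. In HLF CD44 averaged 606 CPM in Inject-Embed and 616 in Mix-Embed against 377 in 2D, and COL1A1 62.3 and 54.1 CPM against 91.1. The ribosomal share and these markers, with MYH11 and AFP in HLF, move with the culture, and their part in the results was not tested.

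In gel culture more of the members fell than rose in Huh7 Mix-Embed and both HLF cultures, the split in Huh7 Inject-Embed was near even, and most of the changes were small. Values after ± are standard errors for log2 fold changes and SDs of 2 libraries for levels. In Huh7 Inject-Embed against 2D, 20 of the 37 members passed the test (adjusted p under 0.05), 8 of them higher, where 13.2% of all tested genes were higher, and 12 lower, where 16.7% were lower. That split was 10 and 10 with the compared groups alone, 10 and 11 with library totals alone and 9 and 11 with DESeq2. Huh7 Mix-Embed had 4 members higher, beside 11.2% of all genes, and 15 lower, beside 10.6%. In HLF Inject-Embed 3 members were higher, beside 9.09%, and 15 lower, beside 8.86%. HLF Mix-Embed had 3 higher, beside 14.4%, and 23 lower, beside 14.6%. A change of at least 2-fold was called for 3 of the 37 members in Huh7 Inject-Embed, beside 5.45% of all genes, and 2 in Huh7 Mix-Embed, beside 2.99%. HLF had 5 in Inject-Embed, beside 3.1%, and 4 in Mix-Embed, beside 5.9%. In each comparison that was a larger share of the members than of all genes, but the counts were small, at 2 to 5 genes. Most of these genes recurred in both cultures of a line. These members were ABLIM3 and FLNA in both Huh7 comparisons with FLNC in Inject-Embed, and TAGLN, CNN1, CALD1 and ABLIM3 in both HLF comparisons with FLNC in Inject-Embed. The median log2 fold change over members with more than 3 counts in a group was -0.10 in Huh7 Inject-Embed and -0.15 in Huh7 Mix-Embed (36 members each), and -0.10 in HLF Inject-Embed and -0.27 in HLF Mix-Embed (37 each), while the median over all tested genes lay between -0.01 and 0. Without regard to sign, the median log2 fold change of these members was 0.22 in Huh7 Inject-Embed and 0.22 in Huh7 Mix-Embed, beside 0.28 and 0.23 over all tested genes. In HLF it was 0.15 in Inject-Embed and 0.29 in Mix-Embed, beside 0.21 and 0.27. The comparisons of a line share their 2D libraries, so their counts are not independent of each other. On the falling side, 5 members, CNN2, CALD1, MYH10, MYL9 and FLNA, were lower in all 4 comparisons, beside 0.92% of all tested genes. ACTA2, LMOD1, ROCK2 and SRF, 4 members, were called in none of the 4, beside 47.4%. With the replicates left out one at a time, the 4 counts ran from 18 to 22, 13 to 18, 16 to 18 and 24 to 25, in the order given.

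**Figure D1:**
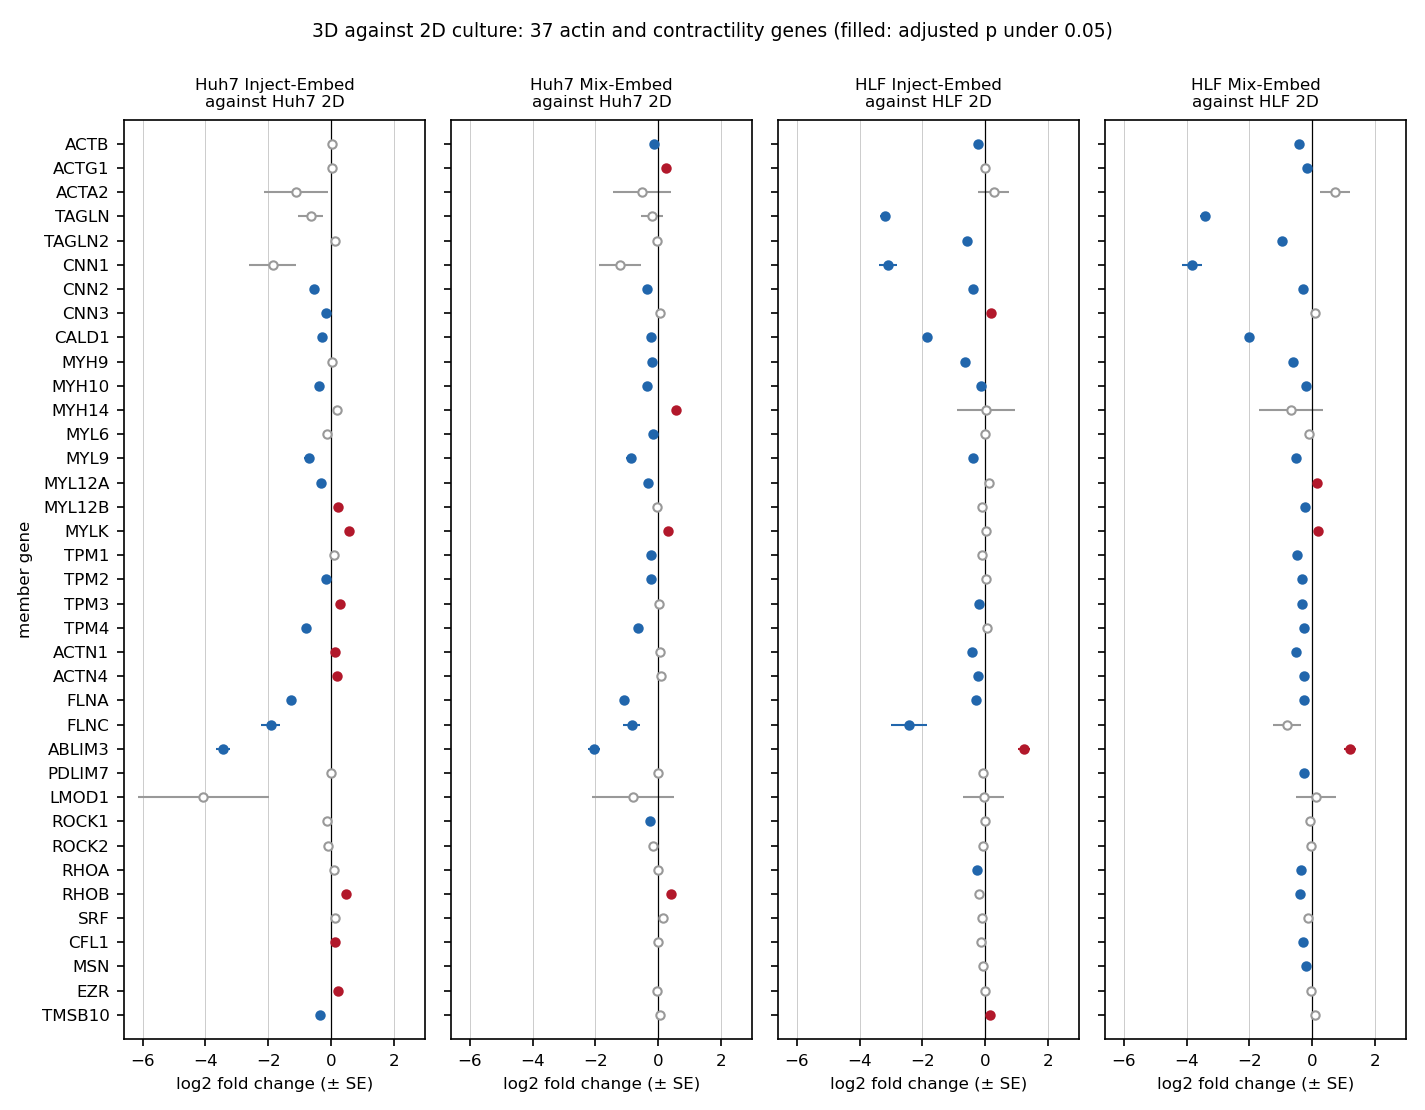
Log2 fold change ± standard error (x axis) of each of the 37 members (y axis) for each gel culture against 2D of the same line, with 2 libraries a group. Filled points have an adjusted p under 0.05 (red higher, blue lower), open points do not, and no point is drawn for MSN in Huh7, which had 0 counts. TAGLN, CNN1 and CALD1 lie far to the left in HLF, and ABLIM3 lies left in Huh7 and right in HLF.

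Large falls in HLF were found for proteins that line contractile filaments in smooth muscle and myofibroblasts. TAGLN (transgelin, ENSG00000149591, chr11:117199321-117204782), an early marker of smooth muscle, stood at 5.12 and 5.46 CPM in HLF Inject-Embed and 4.51 and 4.51 CPM in HLF Mix-Embed, against 46.7 and 49.3 CPM in HLF 2D. No HLF gel library came near the 2D level. Its log2 fold change was -3.18 ± 0.16 (adjusted p = 2.83e-20) in Inject-Embed and -3.41 ± 0.16 (adjusted p = 2.5e-21) in Mix-Embed. In Huh7 the gene was low throughout, at 1.21 and 0.68 CPM in Inject-Embed, 0.905 and 1.79 in Mix-Embed and 1.13 and 1.88 in 2D, and the ranges overlapped, with log2 fold changes of -0.65 ± 0.39 and -0.18 ± 0.35 that did not pass the test. CNN1 (calponin 1, ENSG00000130176, chr19:11538717-11550323), which damps the myosin ATPase, was also low in the HLF gel cultures: 1.23 and 1.76 CPM in Inject-Embed and 1.02 and 0.772 CPM in Mix-Embed, against 12.1 and 13.7 CPM in 2D. The log2 fold changes were -3.10 ± 0.29 (adjusted p = 2.39e-11) and -3.84 ± 0.32 (adjusted p = 2.43e-13). In Huh7 CNN1 had 0.303 and 0 CPM in Inject-Embed, 0.209 and 0.311 in Mix-Embed and 0.8 and 0.404 in 2D, at most 12 counts a library. The gel libraries lay below the 2D libraries, but neither change passed the test (adjusted p = 0.0604 and 0.223).

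CALD1 (caldesmon, ENSG00000122786, chr7:134744252-134970728), which holds tropomyosin in place and blocks myosin, fell in both lines but by very different amounts. It had 7.85 and 7.9 CPM in HLF Inject-Embed and 7.93 and 6.35 CPM in HLF Mix-Embed, against 30.1 and 26.8 CPM in HLF 2D. In Huh7, where it was far more abundant, it had 338 and 344 CPM in Inject-Embed and 352 and 351 CPM in Mix-Embed, against 418 and 402 CPM in 2D. All gel libraries lay below all 2D libraries of the same line. The log2 fold changes were -1.85 ± 0.10 (adjusted p = 3.29e-19) and -2.00 ± 0.10 (adjusted p = 2.31e-20) in HLF, and -0.27 ± 0.05 (adjusted p = 5.09e-05) and -0.22 ± 0.05 (adjusted p = 0.000824) in Huh7. With limma on log2(FPKM + 0.1) the Huh7 calls were lost (adjusted p = 0.0995 and 0.124). CALD1 makes smooth muscle and non-muscle forms by splicing, which counts per gene do not tell apart. Among the broadly expressed relatives, TAGLN2 fell in HLF, with log2 fold changes of -0.58 ± 0.05 and -0.96 ± 0.05, and had 253 to 337 CPM in the HLF gel libraries against 486 to 505 CPM in 2D. In Huh7 TAGLN2 kept to 107 to 132 CPM and passed neither test. CNN2, a calponin of non-muscle cells, was lower in all 4 comparisons. Its log2 fold changes were -0.54 ± 0.06 and -0.35 ± 0.05 in Huh7, and -0.38 ± 0.05 and -0.29 ± 0.05 in HLF. CNN3 went opposite ways in Inject-Embed, at -0.17 ± 0.05 (adjusted p = 0.00566) in Huh7 and 0.20 ± 0.05 (adjusted p = 0.00253) in HLF. The Huh7 call was lost with the compared groups alone (-0.13, adjusted p = 0.0715). TAGLN overlaps PCSK7 on the opposite strand, and the strand setting of the counting is not given in the sources used here, so reads from the shared stretch cannot be assigned with certainty.

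**Figure D2:**
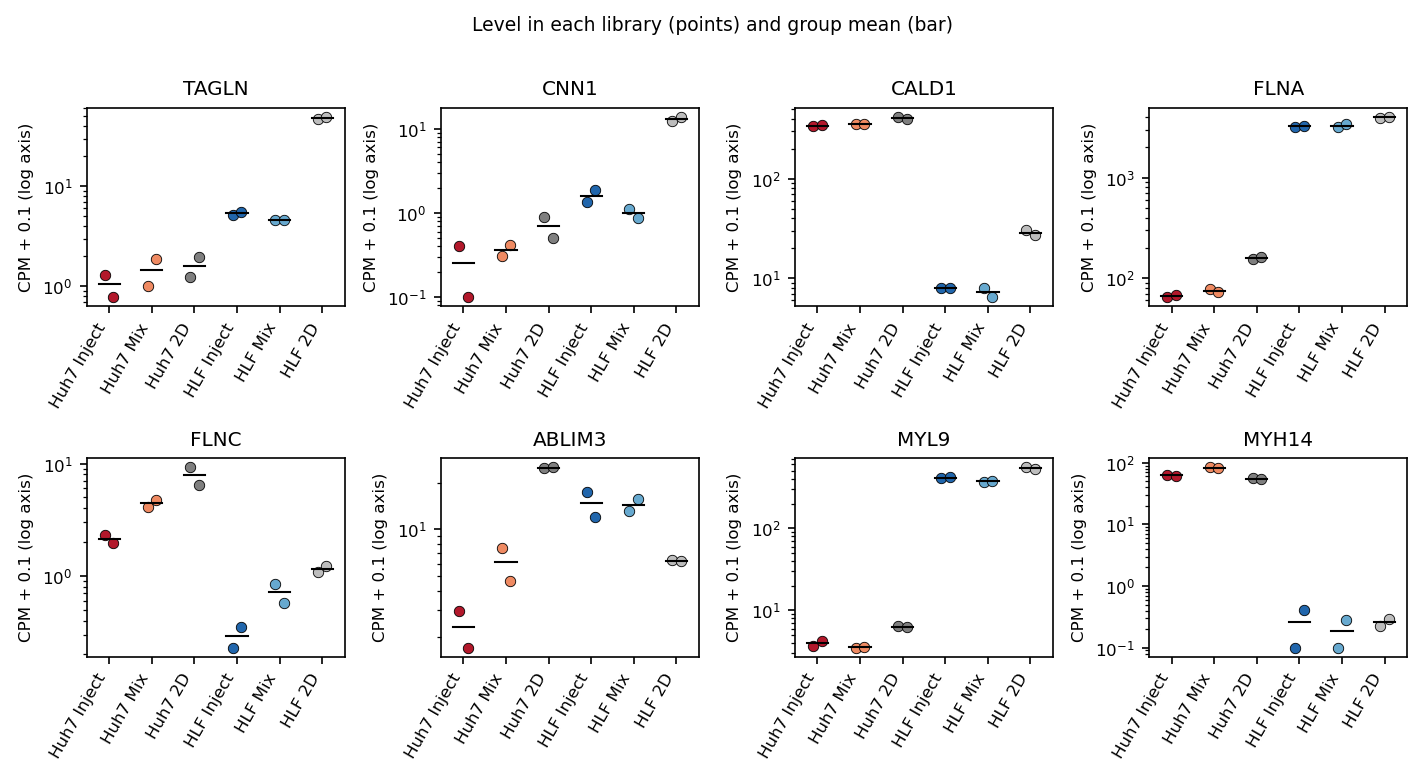
Level of 8 members in each library (points, CPM + 0.1 on a log axis) with the group mean (bar), 2 libraries a group, for both lines in both gel cultures and in 2D. TAGLN and CNN1 are high in HLF 2D alone among the 6 groups, CALD1 falls with gel culture at different levels in each line, and ABLIM3 is low in the Huh7 gel libraries and lowest for HLF in HLF 2D.

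The actins ACTB and ACTG1 changed by less than 2-fold, ACTB most in HLF Mix-Embed. ACTB (beta-actin, ENSG00000075624) had 4912 and 4970 CPM in HLF Inject-Embed and 4281 and 4175 CPM in HLF Mix-Embed, against 5785 and 5639 CPM in HLF 2D, and every gel library was below every 2D library. It fell there, with log2 fold changes of -0.21 ± 0.03 and -0.43 ± 0.03 (adjusted p = 1.88e-06 and 5.24e-15). In Huh7 it had 2631 and 2673 CPM in Inject-Embed and 2397 and 2426 CPM in Mix-Embed, against 2576 and 2656 CPM in 2D. The Mix-Embed libraries were the lowest of these, at -0.12 ± 0.03 (adjusted p = 0.00516), a call that was lost without Huh7 Mix-Embed replicate 1 (log2 fold change -0.11, adjusted p = 0.061), and Inject-Embed did not pass the test. ACTG1 (gamma-actin, ENSG00000184009) had 1949 and 1945 CPM in Huh7 Inject-Embed and 2283 and 2317 CPM in Huh7 Mix-Embed, against 1871 and 1933 CPM in Huh7 2D, and 2729 and 2721 CPM in HLF Inject-Embed and 2438 and 2428 CPM in HLF Mix-Embed, against 2755 and 2647 CPM in HLF 2D. It rose in Huh7 Mix-Embed (0.27 ± 0.03, adjusted p = 2.41e-08) and fell in HLF Mix-Embed (-0.15 ± 0.03, adjusted p = 0.000467), the HLF call being lost with limma (-0.09, adjusted p of 0.0764 and 0.0952). It passed neither Inject-Embed test. Per length, ACTB made up 53.5% and 53.9% of the FPKM of the 3 actin genes in the Huh7 Inject-Embed libraries, 47.2% and 47.1% in Mix-Embed and 53.9% and 53.9% in 2D. ACTG1 was above ACTB in FPKM in Huh7 Mix-Embed alone among the 6 groups. In HLF the share of ACTB was 60.5% and 60.8% in Inject-Embed, 59.9% and 59.4% in Mix-Embed and 64.1% and 64.4% in 2D. The coding sequences of ACTB and ACTG1 are nearly identical and both have processed copies in the genome, so the split of reads between them is uncertain. ACTA2, the smooth muscle actin, had 0.227 and 0 CPM in Huh7 Inject-Embed, 0.139 and 0.233 CPM in Huh7 Mix-Embed and 0.333 and 0.202 CPM in Huh7 2D, and 1.82 and 1.13, 1.91 and 2.14 and 1.49 and 0.945 CPM in the same cultures of HLF. With 3 and 8 counts in Huh7 Inject-Embed and Huh7 2D, the ratio was 2.23-fold lower with a 95% counting interval of 0.535 to 13.1, and no change of ACTA2 with culture passed the test. ACTA2 overlaps STAMBPL1 and FAS on the opposite strand.

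Of the myosin II heavy chains, which carry the motor, Huh7 used 3 paralogues and HLF mainly MYH9. MYH9 supplied 60.9% and 59.6% of the family's FPKM in the Huh7 Inject-Embed libraries, 54.7% and 55.5% in the Mix-Embed libraries and 53.9% and 56% in the 2D libraries. In HLF the MYH9 share was 90.3% and 90.7% in Inject-Embed, 90.6% and 91.3% in Mix-Embed and 93.1% and 93.1% in 2D. MYH9 had 2512 to 2710 CPM in the HLF gel libraries and 3845 to 4047 CPM in HLF 2D, with log2 fold changes of -0.64 ± 0.04 and -0.60 ± 0.04. In Huh7 it had 406 to 481 CPM in gel and 451 to 470 CPM in 2D, and passed the test in Mix-Embed only (-0.18 ± 0.04). MYH10, which holds tension with a slower motor, was lower in all 4 comparisons: -0.38 ± 0.05 (adjusted p = 1.7e-08) and -0.35 ± 0.05 (adjusted p = 2.51e-07) in Huh7, and -0.14 ± 0.05 (adjusted p = 0.0264) and -0.19 ± 0.05 (adjusted p = 0.00208) in HLF. The HLF Inject-Embed call of MYH10 was lost with library totals alone, with limma and without HLF 2D replicate 2 or either Inject-Embed replicate (log2 fold changes -0.17 to -0.10, adjusted p of 0.0697 to 0.3). The HLF Mix-Embed call was lost with limma (-0.12, adjusted p of 0.0546 and 0.062) and without HLF 2D replicate 2 (-0.14, adjusted p = 0.0907). MYH14 had 63.4 and 61.5 CPM in Huh7 Inject-Embed and 83.9 and 82.3 CPM in Huh7 Mix-Embed, against 55.9 and 54.7 CPM in Huh7 2D, and rose in Mix-Embed (0.59 ± 0.09, adjusted p = 5.33e-06), a call lost with limma on log2(FPKM + 0.1) (adjusted p = 0.0664). The Mix-Embed libraries were the highest of the Huh7 groups. In HLF it had 0 and 0.314 CPM in Inject-Embed, 0 and 0.178 in Mix-Embed and 0.124 and 0.189 in 2D, at most 5 counts in a library. MYH10 overlaps NDEL1 on the opposite strand.

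For the regulatory light chain, whose phosphorylation switches the motor on, the mix of transcripts also differed between the lines, with MYL12A and MYL12B present in both. MYL9, the form of smooth muscle and stress fibres, supplied between 0.904% and 1.61% of the FPKM of the 3 regulatory light chain genes in the 6 Huh7 libraries. In HLF its share was 42.8% and 43.4% in Inject-Embed, 40.2% and 43.5% in Mix-Embed and 49.2% and 49.2% in 2D. It was lower in all 4 comparisons. In Huh7 it had 3.56 and 4.17 CPM in Inject-Embed and 3.41 and 3.5 CPM in Mix-Embed, against 6.33 and 6.13 CPM in 2D, log2 fold changes of -0.70 ± 0.16 (adjusted p = 0.000693) and -0.85 ± 0.16 (adjusted p = 8.08e-05). In HLF it had 410 and 421 CPM in Inject-Embed and 366 and 382 CPM in Mix-Embed, against 552 and 526 CPM in 2D, log2 fold changes of -0.37 ± 0.05 (adjusted p = 2.95e-08) and -0.53 ± 0.05 (adjusted p = 1.87e-12). Every gel library lay below every 2D library of its line. MYL12A fell in both Huh7 gel cultures, with log2 fold changes of -0.31 ± 0.06 and -0.32 ± 0.06, and was 0.14 ± 0.05 (adjusted p = 0.0368) in HLF Mix-Embed, a call lost with DESeq2, with no filter on low counts, and without either HLF 2D replicate or HLF Mix-Embed replicate 1 (log2 fold changes 0.11 to 0.15, adjusted p of 0.0684 to 0.231). MYL12B had 159 to 196 CPM in Huh7 and 199 to 258 CPM in HLF. It rose in Huh7 Inject-Embed (0.23 ± 0.06, adjusted p = 0.00131) and fell in HLF Mix-Embed (-0.24 ± 0.05, adjusted p = 0.000315), the HLF call being lost without HLF Mix-Embed replicate 2 (-0.15, adjusted p = 0.0681). MYL12A and MYL12B are near-identical neighbours on chromosome 18, so reads may be split between them. MYL6, the essential light chain of non-muscle myosin, had 217 to 263 CPM in Huh7 and 269 to 304 CPM in HLF, and overlaps MYL6B on its own strand and SMARCC2 on the other. Its call in Huh7 Mix-Embed (-0.15 ± 0.05, adjusted p = 0.0447) was lost under 7 alternatives, among them leaving out Huh7 2D replicate 2 (-0.06, adjusted p = 0.607) or either Mix-Embed replicate (-0.11 and -0.19, adjusted p of 0.356 and 0.0554), and without Huh7 2D replicate 1 the value was -0.24. MYLK, the kinase that phosphorylates the regulatory light chain, rose in both Huh7 gel cultures, with 40.1 and 35.7 CPM in Inject-Embed and 33.4 and 28.9 CPM in Mix-Embed, against 25.5 and 24.8 CPM in 2D. All 4 gel libraries were above the 2D libraries. The log2 fold changes were 0.59 ± 0.09 (adjusted p = 8.7e-07) and 0.31 ± 0.09 (adjusted p = 0.00927), and the second was lost with limma (adjusted p of 0.118 and 0.192) and without Huh7 2D replicate 2 (0.29, adjusted p = 0.0528) or Huh7 Mix-Embed replicate 1 (0.21, adjusted p = 0.258). In HLF MYLK had 114 to 133 CPM in gel libraries against 108 and 117 CPM in 2D, and it was higher in Mix-Embed (0.19 ± 0.07, adjusted p = 0.0279). That call was lost with DESeq2, with limma, with no filter on low counts and without HLF 2D replicate 1 or HLF Mix-Embed replicate 1 (0.13 to 0.24, adjusted p of 0.052 to 0.314).

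**Figure D3:**
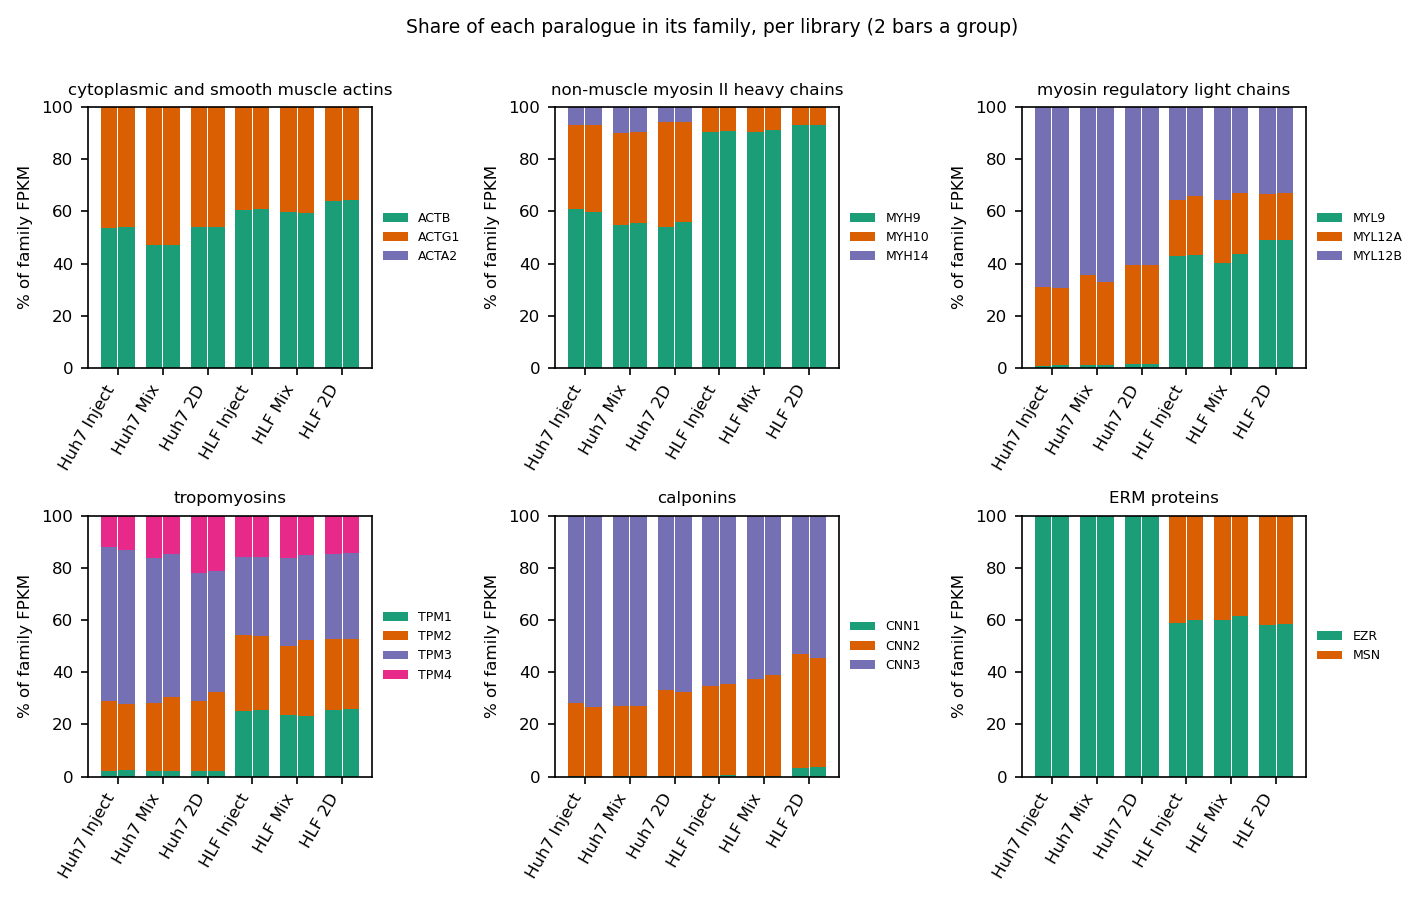
Share of each paralogue in the summed FPKM of its family (y axis, %, stacked to 100) in every library, 2 bars a group, for 6 families of actin-linked genes. MYH9 fills 53.9% to 60.9% of the heavy chains in Huh7 and 90.3% to 93.1% in HLF, MYL9 and TPM1 are wide bands in HLF alone, and MSN has 0 counts in Huh7.

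Tropomyosins, which run along the filament and sort it for particular myosins, differed in both makeup and response. TPM1 gave 2.05% to 2.56% of the family's FPKM in Huh7, against 25% and 25.4% in HLF Inject-Embed, 23.8% and 23.4% in HLF Mix-Embed and 25.6% and 25.9% in HLF 2D. It fell in HLF Mix-Embed, to 546 to 555 CPM against 759 to 768 CPM in 2D (-0.47 ± 0.05, adjusted p = 1.51e-11). In Huh7 Mix-Embed it had 27.7 and 28.5 CPM against 32.7 and 32.4 CPM in 2D (-0.21 ± 0.07, adjusted p = 0.0355), a call lost with the compared groups alone, with limma and without any one of the 4 libraries (-0.23 to -0.15, adjusted p of 0.0652 to 0.201). TPM4 fell in Huh7, to 118 and 130 CPM in Inject-Embed and 147 and 133 CPM in Mix-Embed, against 217 and 217 CPM in 2D. Its log2 fold changes there were -0.81 ± 0.06 (adjusted p = 1.34e-15) and -0.63 ± 0.06 (adjusted p = 3.82e-12), and the TPM4 share of the Huh7 tropomyosin FPKM was 11.9% and 13.1% in Inject-Embed against 21.8% and 21.1% in 2D. In HLF TPM4 was called in Mix-Embed only, at -0.25 ± 0.05. TPM3 moved opposite ways in Inject-Embed, at 0.28 ± 0.04 (adjusted p = 7.12e-07) in Huh7 and -0.20 ± 0.04 (adjusted p = 0.000327) in HLF, and fell in HLF Mix-Embed (-0.33 ± 0.04, adjusted p = 1.3e-08). TPM2 had 89.3 to 117 CPM in Huh7 and 155 to 207 CPM in HLF. It fell in HLF Mix-Embed (-0.32 ± 0.06, adjusted p = 3.28e-05), a call kept under every alternative run. In Huh7 Mix-Embed it was -0.23 ± 0.07 (adjusted p = 0.00647), a call lost with limma (adjusted p of 0.0523 and 0.0579) and without Huh7 2D replicate 2 (-0.12, adjusted p = 0.256) or Huh7 Mix-Embed replicate 1 (-0.18, adjusted p = 0.16). Its call in Huh7 Inject-Embed (-0.17 ± 0.07) was lost under 9 alternatives. Among them were leaving out Huh7 2D replicate 2 (-0.06, adjusted p = 0.634), Huh7 Inject-Embed replicate 1 (-0.21, adjusted p = 0.0534) or Huh7 Inject-Embed replicate 2 (-0.12, adjusted p = 0.293), and without Huh7 2D replicate 1 the value was -0.27. Each of these genes makes several isoforms by splicing, which counts per gene do not separate.

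Among the crosslinkers the filamins fell in Huh7. FLNA (filamin A, ENSG00000196924, chrX:154348524-154374638), which joins filaments into a web and ties them to integrins, had 64.7 and 68.1 CPM in Huh7 Inject-Embed and 77 and 72.1 CPM in Huh7 Mix-Embed, against 155 and 162 CPM in Huh7 2D. In HLF it had 3219 and 3270 CPM in Inject-Embed and 3189 and 3397 CPM in Mix-Embed, against 3941 and 4021 CPM in 2D. Gel libraries were below 2D libraries in both lines without overlap. The log2 fold changes were -1.26 ± 0.05 (adjusted p = 1.01e-24) and -1.09 ± 0.05 (adjusted p = 2.24e-22) in Huh7, and -0.30 ± 0.04 (adjusted p = 3.19e-08) and -0.27 ± 0.04 (adjusted p = 8.42e-08) in HLF. FLNC, the muscle filamin, was at a low level, with 2.19 and 1.87 CPM in Huh7 Inject-Embed and 3.97 and 4.67 CPM in Huh7 Mix-Embed, against 9.13 and 6.33 CPM in Huh7 2D. It fell, with log2 fold changes of -1.92 ± 0.30 (adjusted p = 1.48e-06) and -0.84 ± 0.26 (adjusted p = 0.0171), the second call being lost with DESeq2 (adjusted p = 0.0714), with limma on log2(FPKM + 0.1) (adjusted p = 0.0512) and without Huh7 2D replicate 1 (-0.55, adjusted p = 0.357), Huh7 Mix-Embed replicate 1 (-0.72, adjusted p = 0.164) or Huh7 Mix-Embed replicate 2 (-0.96, adjusted p = 0.0544). In HLF FLNC had 0.13 and 0.251 CPM in Inject-Embed and 0.752 and 0.475 CPM in Mix-Embed, against 0.991 and 1.13 CPM in 2D, and only the first passed the test (-2.42 ± 0.58, adjusted p = 0.00189), though not with limma on log2(FPKM + 1) (-0.13, adjusted p = 0.305). The alpha-actinins, which bundle antiparallel filaments, went opposite ways in Inject-Embed. ACTN1 was 0.13 ± 0.05 (adjusted p = 0.0401) in Huh7 and -0.41 ± 0.05 (adjusted p = 1.09e-09) in HLF, and ACTN4 was 0.19 ± 0.04 (adjusted p = 0.000508) in Huh7 and -0.23 ± 0.04 (adjusted p = 6.08e-05) in HLF. The rise of ACTN1 in Huh7 was lost with no filter on low counts and without Huh7 2D replicate 1 or either Inject-Embed replicate (log2 fold changes 0.08 to 0.14, adjusted p of 0.0883 to 0.354). In HLF Mix-Embed both fell, with log2 fold changes of -0.52 ± 0.05 and -0.27 ± 0.04. ACTN4 overlaps CAPN12 on the opposite strand.

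ABLIM3 (actin-binding LIM protein 3, ENSG00000173210, chr5:149141483-149260542), a LIM-domain protein that attaches to filaments, changed most in Huh7 and in the opposite direction in HLF. It had 2.88 and 1.62 CPM in Huh7 Inject-Embed and 7.52 and 4.51 CPM in Huh7 Mix-Embed, against 24.9 and 25 CPM in Huh7 2D. In HLF it had 17.4 and 11.9 CPM in Inject-Embed and 13 and 15.7 CPM in Mix-Embed, against 6.19 and 6.11 CPM in 2D. All Huh7 gel libraries lay below, and all HLF gel libraries above, the 2D libraries of their line. The log2 fold changes were -3.45 ± 0.22 (adjusted p = 9.85e-17) and -2.04 ± 0.18 (adjusted p = 7.05e-12) in Huh7, and 1.25 ± 0.19 (adjusted p = 1.37e-06) and 1.22 ± 0.19 (adjusted p = 1.1e-06) in HLF. The order of the lines differed between cultures: ABLIM3 was lower in Huh7 than in HLF in Inject-Embed (-2.68 ± 0.24) and Mix-Embed (-1.24 ± 0.19) and higher in Huh7 in 2D (2.02 ± 0.18), each with an adjusted p of at most 2.06e-07. PDLIM7, a PDZ and LIM protein of stress fibres, kept to 54.6 to 61.3 CPM in Huh7, and in HLF fell in Mix-Embed (-0.27 ± 0.06, adjusted p = 0.000512), a call lost with limma (-0.21, adjusted p of 0.0664 and 0.0785). LMOD1, the leiomodin that nucleates filaments in smooth muscle, had 0 and 0 CPM in Huh7 Inject-Embed, 0.0696 and 0.0778 CPM in Huh7 Mix-Embed and 0.2 and 0.0673 CPM in Huh7 2D, a total of 6 counts in these libraries. In HLF it had 0.649 and 0.69, 1.02 and 0.475 and 0.743 and 0.63 CPM in the same cultures, and no change with culture was detectable at this depth.

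The upstream regulators changed by less than 2-fold. RHOA, the GTPase that activates ROCK and formins, fell in HLF, with log2 fold changes of -0.25 ± 0.04 and -0.36 ± 0.04, and passed neither test in Huh7, where it had 533 to 579 CPM. RHOB, an inducible relative that also acts in vesicle traffic, rose in both Huh7 gel cultures, with 82 and 75.2 CPM in Inject-Embed and 74.5 and 78.3 CPM in Mix-Embed, against 54.5 and 58.7 CPM in 2D. The log2 fold changes were 0.47 ± 0.07 (adjusted p = 2.09e-06) and 0.43 ± 0.07 (adjusted p = 1.79e-05), and in HLF Mix-Embed RHOB fell, with a log2 fold change of -0.39 ± 0.08 (adjusted p = 5.57e-05). ROCK1 was lower in Huh7 Mix-Embed only (-0.24 ± 0.05, adjusted p = 0.000569), and ROCK2 kept within 71 to 83.6 CPM in Huh7 and 142 to 150 CPM in HLF. SRF had 68.2 to 74.4 CPM in Huh7 gel libraries against 57.4 to 68.9 CPM in Huh7 2D, and 79.9 to 92 CPM in HLF gel libraries against 93.7 to 94.9 CPM in HLF 2D, with log2 fold changes between -0.13 and 0.17 that did not pass the test. CFL1, which severs filaments, fell in HLF Mix-Embed, with a log2 fold change of -0.30 ± 0.04 (adjusted p = 2.69e-07), and its rise in Huh7 Inject-Embed (0.13 ± 0.05) was lost with no filter on low counts (0.12, adjusted p = 0.0574) and without Huh7 2D replicate 1 (0.08, adjusted p = 0.301) or Huh7 Inject-Embed replicate 1 (0.10, adjusted p = 0.217). TMSB10, a thymosin that sequesters monomers, was -0.34 ± 0.06 (adjusted p = 9.52e-06) in Huh7 Inject-Embed, with 185 and 166 CPM against 199 and 244 CPM in 2D, and 0.15 ± 0.05 (adjusted p = 0.0311) in HLF Inject-Embed. Without Huh7 2D replicate 2 the Huh7 value was -0.18, and the HLF call was lost with DESeq2, with limma and without HLF 2D replicate 2 or either HLF Inject-Embed replicate (log2 fold changes 0.12 to 0.19, adjusted p of 0.0894 to 0.344). RHOA overlaps TCTA, CFL1 overlaps MUS81 and SNX32, and TMSB10 overlaps TRABD2A, each on the opposite strand.

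Of the linkers of filaments to the membrane, EZR had counts in both lines and MSN in HLF alone. MSN (moesin, ENSG00000147065) had 0 counts in all 6 Huh7 libraries, against 485 and 483 CPM in HLF Inject-Embed, 446 and 450 in HLF Mix-Embed and 508 and 514 in HLF 2D. Against a floor of 3 counts over the Huh7 group, MSN was at least 4026-fold lower in Huh7 Inject-Embed, 4066-fold in Mix-Embed and 5086-fold in 2D than in the same culture of HLF. Within HLF it fell in Mix-Embed (-0.19 ± 0.05, adjusted p = 0.00137), a call lost with limma on log2(FPKM + 0.1) (-0.13, adjusted p = 0.282). EZR (ezrin), the paralogue of epithelial cells, was therefore the whole of the pair's FPKM in Huh7, and 58.9% and 59.9%, 60.2% and 61.5% and 58% and 58.5% of it in the HLF cultures. EZR was lower in Huh7 than in HLF, at 147 to 178 CPM against 378 to 406 CPM, and among the gel cultures it passed the test in Huh7 Inject-Embed only (0.22 ± 0.05, adjusted p = 0.00104).

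The lines were then compared in each culture. In every culture 35 of the 37 members differed, 7 higher and 28 lower in Huh7 than in HLF, while over all tested genes the calls were near evenly split: 37.6% higher and 39.5% lower in Inject-Embed, 37.9% and 39.1% in Mix-Embed, and 38.1% and 39.2% in 2D. The median log2 difference of the members was -0.90 in Inject-Embed, -0.81 in Mix-Embed and -0.86 in 2D, and that of all tested genes -0.03 to -0.02. With library totals alone as the scaling the median over all genes moved to between -0.25 and -0.18, and the members counted 6 higher and 30 lower in each culture. By count the members took 1.01% to 1.02% of the library in Huh7 Inject-Embed, 0.973% to 0.982% in Mix-Embed and 0.988% to 1.01% in 2D, against 2.42% to 2.43%, 2.25% to 2.3% and 2.74% to 2.75% in the same cultures of HLF. Among members lower in Huh7, the largest gaps in 2D after MSN were in MYL9, TAGLN, FLNA and TPM1. FLNA averaged 14 ± 0.371 FPKM in Huh7 2D and 391 ± 6.19 in HLF 2D, a log2 fold change of -4.65 ± 0.04 (adjusted p = 1.6e-49). MYL9 averaged 2.06 ± 0.0565 FPKM in Huh7 and 199 ± 6.66 in HLF (-6.43 ± 0.08, adjusted p = 4.99e-46), and TPM1 2.36 ± 0.0239 and 61.6 ± 0.388 (-4.55 ± 0.06, adjusted p = 1.21e-44). TAGLN was -4.99 ± 0.20 (adjusted p = 5.17e-26) and CNN1 -4.40 ± 0.34 (adjusted p = 2.01e-15) in 2D, and the differences were -2.45 ± 0.30 and -3.16 ± 0.63 in Inject-Embed and -1.76 ± 0.28 and -1.76 ± 0.61 in Mix-Embed. The CNN1 call in Mix-Embed was lost under the replicate block (-1.33, adjusted p = 0.0743) and without Huh7 Mix-Embed replicate 1 (-1.49, adjusted p = 0.0756). Huh7 Inject-Embed replicate 2 had 0 counts of CNN1, so without replicate 1 no fold could be given for Inject-Embed.

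The exceptions, higher in Huh7, were few. CALD1 was 5.43 ± 0.08 (adjusted p = 8.81e-43) in Inject-Embed, 5.63 ± 0.08 (adjusted p = 3.63e-43) in Mix-Embed and 3.85 ± 0.06 (adjusted p = 1.49e-40) in 2D, with 33.1 ± 0.378, 33 ± 0.103 and 38.9 ± 1.24 FPKM in Huh7 and 0.856 ± 0.00363, 0.786 ± 0.122 and 3 ± 0.239 FPKM in HLF. MYH14, with 2262 counts in Huh7 Mix-Embed and 3 in HLF Mix-Embed, was 872-fold higher there (95% counting interval 298 to 4233), and in 2D its log2 fold change was 8.39 ± 0.24. FLNC was 2.85 ± 0.32 (adjusted p = 6.52e-11) in 2D. FLNC, CNN3 and RHOA were higher in Huh7 in all 3 cultures, MYH10 and ABLIM3 in 2D, and ACTN4 and RHOB in the gel cultures. Those of CNN3, RHOA, MYH10, ACTN4 and RHOB were under 1 on the log2 scale. ACTN4 in Mix-Embed, at 0.22 ± 0.04, was -0.01 with library totals alone or limma on FPKM and 0.11 without HLF Mix-Embed replicate 1. CNN3 in Inject-Embed and MYH10 in 2D, both at 0.17, were 0.01 with library totals alone or limma. ACTA2 was low in both lines, and with 3 counts in Huh7 Inject-Embed and 46 in HLF Inject-Embed it was 12.2-fold lower in Huh7 (95% counting interval 3.93 to 61.4). All 3 of those counts were in Huh7 Inject-Embed replicate 1. LMOD1 was at least 5.57-fold lower in Huh7 Inject-Embed than in HLF Inject-Embed, at 0 and 21 counts. Per length, ACTB, ACTG1 and TMSB10 were the 3 most abundant members in all 6 groups, with TMSB10 at 2862 ± 17.7, 2749 ± 20 and 2501 ± 94.3 FPKM leading in HLF, and an actin leading in Huh7.

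**Figure D4:**
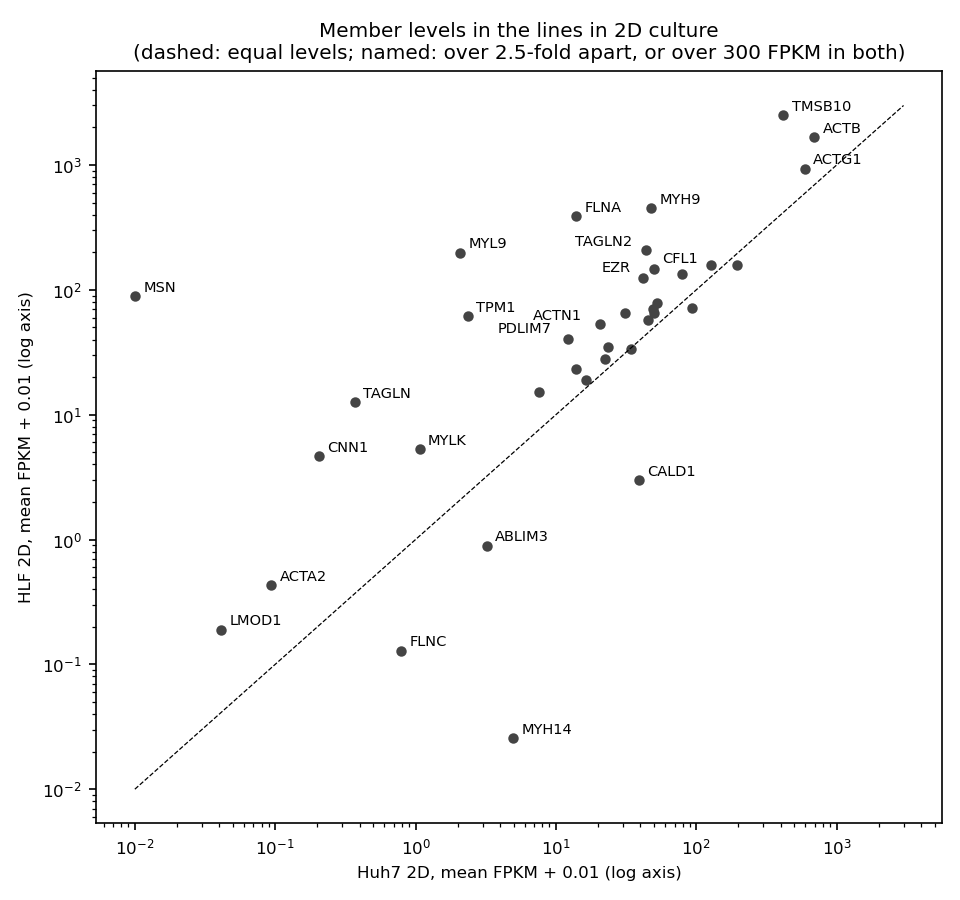
Mean FPKM + 0.01 of each of the 37 members in Huh7 2D (x axis) and HLF 2D (y axis), both log axes, each a mean of 2 libraries, with the dashed line at equal levels. Most members lie above the line, MSN at the left edge with no counts in Huh7, and MYH14, CALD1, FLNC and ABLIM3 lie well below it.

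Whether the lines responded differently was tested as the difference of their log2 fold changes, Huh7 minus HLF. For Inject-Embed against 2D 21 members passed, 14 with a higher value in Huh7, beside 11.7% of all genes, and 7 with a lower one, beside 13.1%. For Mix-Embed 21 passed, 17 higher, beside 10.2%, and 4 lower, beside 10.2%, or 13 and 6 with library totals alone. The members whose fall was deeper in HLF were led by TAGLN, at 2.53 ± 0.46 (adjusted p = 3.54e-05) for Inject-Embed and 3.23 ± 0.42 (adjusted p = 6.24e-08) for Mix-Embed, CALD1 at 1.59 ± 0.11 (adjusted p = 4.03e-15) and 1.78 ± 0.11 (adjusted p = 2.55e-16), and TAGLN2 at 0.70 ± 0.08 and 0.92 ± 0.08. CNN1 was 2.64 ± 0.88 (adjusted p = 0.0265) for Mix-Embed, a call lost on leaving out any of 5 libraries: HLF 2D replicate 2, HLF Mix-Embed replicate 2, Huh7 2D replicate 2, or either Huh7 Mix-Embed replicate (2.24 to 2.91, adjusted p of 0.0548 to 0.217), and it did not pass for Inject-Embed. Smaller differences of the same sign in both cultures were found for ACTB, MYH9, TPM3, ACTN1, ACTN4, RHOA, RHOB and CFL1, between 0.23 and 0.83. On the other side, the value was lower in Huh7 for FLNA, at -0.96 ± 0.06 (adjusted p = 8.24e-17) and -0.81 ± 0.06 (adjusted p = 1.44e-14), for TPM4, at -0.86 ± 0.08 (adjusted p = 3.01e-12) and -0.38 ± 0.08 (adjusted p = 0.000194), and for ABLIM3, at -4.70 ± 0.29 (adjusted p = 6.83e-17) and -3.26 ± 0.26 (adjusted p = 2.53e-13). MYL12A was -0.45 ± 0.08 and -0.46 ± 0.08. MYL9 and CNN2, which fell in all 4 comparisons, showed no line difference past the threshold: MYL9 was -0.32 ± 0.17 (adjusted p = 0.198) and -0.32 ± 0.17 (adjusted p = 0.216), and CNN2 -0.16 ± 0.08 (adjusted p = 0.136) and -0.06 ± 0.08 (adjusted p = 0.708).

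**Figure D5:**
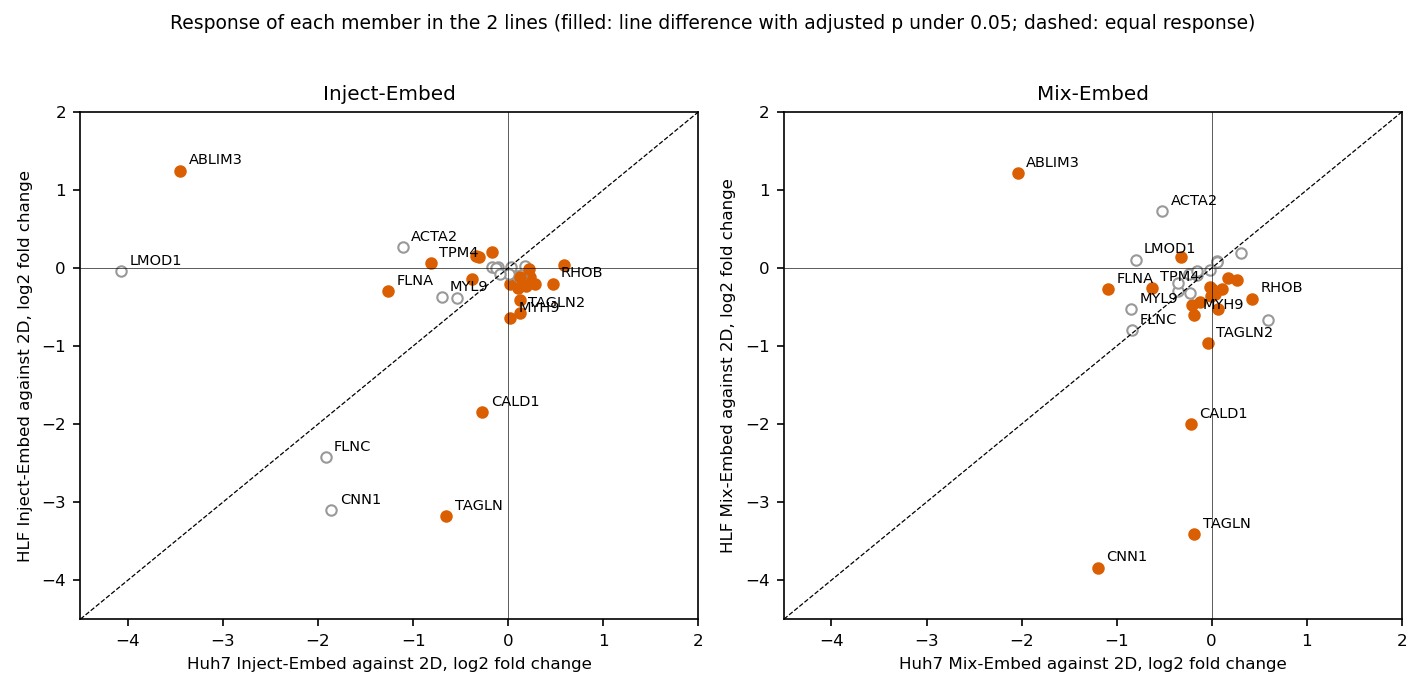
Log2 fold change of each member against 2D in Huh7 (x axis) and HLF (y axis), for Inject-Embed (left) and Mix-Embed (right), without MSN, which had no counts in Huh7. Filled points have a line difference with an adjusted p under 0.05, and points on the dashed line have equal values in both lines: TAGLN and CALD1 lie far below it, ABLIM3, FLNA and TPM4 above it.

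The gel cultures were compared with each other. In HLF Inject-Embed against HLF Mix-Embed 10 members passed, all higher in Inject-Embed, where 3.56% of all genes were higher and 4.71% lower. No member was called lower by edgeR, DESeq2 or limma, and 2 members were lower at an unadjusted p under 0.05 in edgeR. The 10 were ACTB (0.22 ± 0.03), ACTG1 (0.16 ± 0.03), TAGLN2 (0.38 ± 0.05), TPM1 (0.37 ± 0.05), TPM2 (0.34 ± 0.06), TPM4 (0.31 ± 0.05), MYL9, TPM3, PDLIM7 and CFL1, so all 4 tropomyosins were among them. The calls of MYL9 and TPM3 were lost without any one of the 4 libraries (0.11 to 0.18 and 0.11 to 0.14, adjusted p of 0.07 to 0.319 and 0.1 to 0.237). Those of PDLIM7 and CFL1 were lost without HLF Inject-Embed replicate 2 (0.12, adjusted p = 0.521, and 0.18, adjusted p = 0.058) or HLF Mix-Embed replicate 1 (0.14, adjusted p = 0.362, and 0.17, adjusted p = 0.0557). The count was 6 without HLF Inject-Embed replicate 2, 5 or 6 with limma on FPKM, and 7 with library totals alone. In Huh7 Inject-Embed against Huh7 Mix-Embed 18 passed, 9 higher, beside 9.55% of all genes, and 9 lower, beside 13.4%, or 12 and 6 with library totals alone. The lower ones were led by ABLIM3, at -1.41 ± 0.27 (adjusted p = 9.87e-05), FLNC, at -1.08 ± 0.32 (adjusted p = 0.00985), MYH14, at -0.41 ± 0.09 (adjusted p = 0.000931), and TMSB10, at -0.40 ± 0.06 (adjusted p = 6.83e-07). FLNC was no longer called without Huh7 Inject-Embed replicate 2 (-0.97, adjusted p = 0.0841) or Huh7 Mix-Embed replicate 2 (-0.95, adjusted p = 0.0907). The ABLIM3 call was lost with limma on log2(FPKM + 1) (-0.44, adjusted p = 0.0614) and that of MYH14 with limma on log2(FPKM + 0.1) (-0.36, adjusted p = 0.211). Among the higher ones were MYL12B (0.25 ± 0.06), TPM3 (0.23 ± 0.04) and EZR (0.23 ± 0.05). ACTG1 was lower in Inject-Embed in Huh7 (-0.24 ± 0.03) and higher in HLF, and the difference between the lines passed the test (-0.40 ± 0.05, adjusted p = 2.15e-08). The lines differed in this contrast for 9 members, 3 higher in Huh7, beside 4.62% of all genes, and 6 lower, beside 5.95%.

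Genes of the same pathways outside the list were read from 6 lists chosen with earlier results of these data known. Over all tested genes, 29.9% were called in Huh7 Inject-Embed, 21.7% in Huh7 Mix-Embed, 17.9% in HLF Inject-Embed and 29% in HLF Mix-Embed, in either direction, with the shares in each direction as given above. Among 32 tested crosslinkers and stress fibre LIM proteins, 7 were higher and 8 lower in Huh7 Inject-Embed and 10 higher and 8 lower in Huh7 Mix-Embed, with medians of 0.08 and 0.10. These were 21.9% higher and 25% lower in Inject-Embed, beside 13.2% and 16.7% of all genes, and 31.2% and 25% in Mix-Embed, beside 11.2% and 10.6%. In HLF Inject-Embed 4 were higher and 12 lower, and in HLF Mix-Embed 5 higher and 15 lower, with medians of -0.12 and -0.24. The lower shares were 37.5% and 46.9% of the list, beside 8.86% and 14.6% of all genes, and the higher shares 12.5% and 15.6%, beside 9.09% and 14.4%. CSRP1, a LIM protein of stress fibres, averaged 117 ± 4.64 CPM in Huh7 Inject-Embed and 45.7 ± 2.76 CPM in Huh7 2D, a log2 fold change of 1.36 ± 0.06 (adjusted p = 2.17e-21). It fell in HLF Inject-Embed (-0.27 ± 0.05, adjusted p = 0.000116). FSCN1, the bundler of filopodia, averaged 11.4 ± 1.1 CPM in Huh7 Inject-Embed and 32.3 ± 2.74 CPM in Huh7 2D (-1.50 ± 0.10, adjusted p = 2.07e-16), and was 0.08 ± 0.05 in HLF Inject-Embed, which did not pass the test. In Mix-Embed FSCN1 fell in both lines, at -0.78 ± 0.09 (adjusted p = 3.11e-09) in Huh7 and -0.25 ± 0.05 (adjusted p = 0.00022) in HLF. PDLIM2 rose in Huh7 Mix-Embed, with a log2 fold change of 1.51 ± 0.13 (adjusted p = 4.09e-12), and fell in HLF Mix-Embed, with a log2 fold change of -0.88 ± 0.16 (adjusted p = 1.41e-05). Of 27 tested genes that bind monomers, cap or sever, 7 were higher and 6 lower in Huh7 Inject-Embed, 5 higher and 10 lower in Huh7 Mix-Embed, 5 higher and 5 lower in HLF Inject-Embed, and 2 higher and 12 lower in HLF Mix-Embed. By share of the list 48.1%, 55.6%, 37% and 51.9% were called in these comparisons. VIL1 (villin), which bundles and severs filaments in microvilli, averaged 226 ± 4.38 CPM in Huh7 Inject-Embed and 243 ± 8.02 CPM in Huh7 Mix-Embed, against 115 ± 2.47 CPM in Huh7 2D. It rose, with log2 fold changes of 0.98 ± 0.06 and 1.09 ± 0.06. In Huh7 CORO2A, a coronin, rose, with log2 fold changes of 0.74 ± 0.07 and 0.50 ± 0.07, and CAP2, which recycles monomers, fell, with log2 fold changes of -0.93 ± 0.12 and -0.98 ± 0.12.

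Of 23 tested SRF and MRTF partners and targets, 2 were higher and 10 lower in Huh7 Inject-Embed, 3 higher and 5 lower in Huh7 Mix-Embed, 6 higher and 7 lower in HLF Inject-Embed, and 5 higher and 8 lower in HLF Mix-Embed, with medians between -0.22 and -0.08. That was 52.2%, 34.8%, 56.5% and 56.5% of the list called. ANKRD1, a muscle repeat protein also induced by YAP, averaged 4.57 ± 0.965 CPM in HLF Inject-Embed and 6.13 ± 0.0231 CPM in HLF Mix-Embed, against 28.3 ± 0.501 CPM in HLF 2D. It fell, with log2 fold changes of -2.63 ± 0.18 and -2.20 ± 0.17. The immediate early genes FOS and EGR1, which SRF drives with other partners, rose in HLF: FOS at 2.11 ± 0.25 in Inject-Embed and 3.84 ± 0.21 in Mix-Embed, and EGR1 at 0.73 ± 0.14 and 3.20 ± 0.11. In Huh7 EGR1 fell, with log2 fold changes of -0.61 ± 0.10 and -0.49 ± 0.10, while FOS rose in Mix-Embed (2.04 ± 0.21, adjusted p = 1.7e-10) and did not pass the test in Inject-Embed. The Arp2/3 list, which makes branched filaments, had 6, 8, 2 and 4 of 23 genes called in Huh7 Inject-Embed, Huh7 Mix-Embed, HLF Inject-Embed and HLF Mix-Embed, mostly lower. These are 26.1%, 34.8%, 8.7% and 17.4% of the list, below the share of all genes called except in Huh7 Mix-Embed. They included WIPF1, ABI2 and ACTR2 in Huh7 Mix-Embed (-0.42 ± 0.13, -0.27 ± 0.07 and -0.37 ± 0.04). Of 19 tested partners of ezrin, radixin and moesin and of the cortex, 6 were higher and 7 lower in Huh7 Inject-Embed, 4 higher and 6 lower in Huh7 Mix-Embed, 6 higher and 2 lower in HLF Inject-Embed, and 9 higher and 3 lower in HLF Mix-Embed. By share 68.4%, 52.6%, 42.1% and 63.2% of the list were called. The spectrin adaptor ANK3 fell in Huh7, with log2 fold changes of -1.56 ± 0.13 and -0.60 ± 0.11, and rose in HLF, with log2 fold changes of 0.24 ± 0.05 and 0.37 ± 0.05. Its relative ANK1 rose in Huh7, with log2 fold changes of 1.45 ± 0.19 and 0.73 ± 0.20, and in HLF Mix-Embed (0.51 ± 0.14, adjusted p = 0.00288). EPB41L1, a band 4.1 protein, rose in HLF, with log2 fold changes of 0.71 ± 0.07 and 1.00 ± 0.07, and fell in Huh7 Inject-Embed (-0.42 ± 0.15, adjusted p = 0.0278). Muscle paralogues of the members were mostly near 0, with 10 of 27 passing the filter, and 4 of these were called in Huh7 Inject-Embed. MYH3, an embryonic myosin, was higher (0.75 ± 0.18), and SMTN (-0.38 ± 0.07) and MYL6B (-0.33 ± 0.11) were among the 3 that fell. In each of the other 3 comparisons with 2D the count called was 0 with edgeR, DESeq2 and limma, with 1 gene at an unadjusted p under 0.05 in edgeR in Huh7 Mix-Embed, 1 in HLF Inject-Embed and 3 in HLF Mix-Embed.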

How the data were processed

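RNA-seq libraries of 6 groups with 2 biological replicates each were used as deposited. The authors deposited raw counts per gene and FPKM per gene. FastQC, Trimmomatic, STAR 2.7.9a and featureCounts on GRCh38 are named per the submitters' processing notes, while neither the annotation release nor the strand setting of the counting is stated there. The deposited FPKM equalled count over gene length and library total within a relative 1e-06 for all 167453 values with at least 20 counts.

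Counts were fitted with edgeR 4.0.16 in R 4.3.3 (TMM, filterByExpr with a minimum count of 10, 19342 genes, a mean for each group, quasi-likelihood tests, Benjamini-Hochberg adjustment over all genes at 0.05). Every adjusted p is from that fit unless another tool is named. Standard errors are the log2 fold change over the square root of F. The dispersion was 0.00211 (replicate CV 4.6%). Alternatives were RLE scaling, library totals alone, no filter on low counts, DESeq2 1.42.0, limma 3.58.1 on log2(FPKM + 1) and log2(FPKM + 0.1), the compared groups alone, a replicate block, and each library left out. Ratios at 1 to 3 counts carry a 95% counting interval, and a group at 0 was set to a floor of 3 counts over the group; both cover counting error only.

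The members and lists were chosen with earlier results of these data known. Members called with at least a 2-fold change against 2D, ACTB, ACTG1 and members with 3 counts or fewer in a group are given per library. Other members are given by ranges, with fold changes for those lower in all 4 comparisons with 2D or called opposite ways in the lines. Fold changes and library values of further members were added after their values were seen. From each pathway list up to 3 called genes at 10 CPM or more in the higher group with the largest change are named. The result of 1 further list is not reported here.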

Additional observations from a re-analysis of the deposited data

Results flagged for a closer look

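The lines differed in their response to gel culture for many of the members, each value below being the log2 fold change in Huh7 minus that in HLF, with an adjusted p under 0.05 in edgeR's quasi-likelihood test of the difference. Groups of 2 libraries are too small for a test of single libraries that stand apart.

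For Inject-Embed against 2D, 14 members had the higher value in Huh7: ACTB (0.23), TAGLN (2.53), TAGLN2 (0.70), CALD1 (1.59), MYH9 (0.66), MYL12B (0.34), MYLK (0.55), TPM3 (0.47), ACTN1 (0.54), ACTN4 (0.42), RHOA (0.35), RHOB (0.67), CFL1 (0.25) and EZR (0.23). The 7 with the lower value in Huh7 were CNN3 (-0.36), MYH10 (-0.24), MYL12A (-0.45), TPM4 (-0.86), FLNA (-0.96), ABLIM3 (-4.70) and TMSB10 (-0.49). With limma on log2(FPKM + 1) the MYLK call was lost. Of these calls, that of EZR was lost without Huh7 Inject-Embed replicate 2 (0.20, adjusted p = 0.0579), and that of MYH10 without HLF 2D replicate 1 (-0.20, adjusted p = 0.0578) or HLF Inject-Embed replicate 1 (-0.18, adjusted p = 0.101).

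For Mix-Embed against 2D, 17 members had the higher value in Huh7: ACTB (0.32), ACTG1 (0.42), TAGLN (3.23), TAGLN2 (0.92), CNN1 (2.64), CALD1 (1.78), MYH9 (0.42), MYL12B (0.22), TPM1 (0.26), TPM3 (0.37), ACTN1 (0.60), ACTN4 (0.38), PDLIM7 (0.27), RHOA (0.36), RHOB (0.83), SRF (0.31) and CFL1 (0.31). The 4 with the lower value were MYL12A (-0.46), TPM4 (-0.38), FLNA (-0.81) and ABLIM3 (-3.26). With DESeq2, with library totals alone and with both limma settings the calls of SRF, PDLIM7 and MYL12B were lost. That of MYL12B was also lost with the compared groups alone. Library totals alone and limma on log2(FPKM + 0.1) ended the TPM1 call. The TPM1 call was lost without any one of 7 of the 8 libraries, all but Huh7 2D replicate 1 (0.24 to 0.29, adjusted p of 0.0566 to 0.117). The SRF call was lost without either HLF 2D replicate, HLF Mix-Embed replicate 1, Huh7 2D replicate 1 or Huh7 Mix-Embed replicate 2 (0.18 to 0.32, adjusted p of 0.0682 to 0.3). The PDLIM7 call was lost without HLF 2D replicate 1, HLF Mix-Embed replicate 1, Huh7 2D replicate 1 or Huh7 Mix-Embed replicate 2 (0.19 to 0.24, adjusted p of 0.101 to 0.289). The MYL12B call was lost without HLF 2D replicate 1, HLF Mix-Embed replicate 2 or either Huh7 Mix-Embed replicate (0.12 to 0.23, adjusted p of 0.069 to 0.351). The CNN1 call was lost without HLF 2D replicate 2, HLF Mix-Embed replicate 2, Huh7 2D replicate 2 or either Huh7 Mix-Embed replicate (2.24 to 2.91, adjusted p of 0.0548 to 0.217).

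Between Inject-Embed and Mix-Embed, the lines differed for MYH9 (0.24), MYLK (0.42) and EZR (0.21), higher in Huh7, and for ACTG1 (-0.40), CNN3 (-0.33), TPM2 (-0.27), TPM4 (-0.49), ABLIM3 (-1.44) and TMSB10 (-0.47), lower in Huh7. Both limma settings ended the calls of TMSB10, ABLIM3, MYLK and TPM2. That of TPM2 was also lost with DESeq2, RLE scaling, library totals alone and the compared groups alone, and that of EZR with no filter on low counts. The ABLIM3 call was lost without Huh7 Mix-Embed replicate 1 (-1.01, adjusted p = 0.0832) and the MYLK call without Huh7 Inject-Embed replicate 1 (0.34, adjusted p = 0.1) or Huh7 Mix-Embed replicate 2 (0.33, adjusted p = 0.0952). The EZR call was lost without HLF Inject-Embed replicate 1, HLF Mix-Embed replicate 2, or any one of the 4 Huh7 libraries (0.19 to 0.24, adjusted p of 0.0504 to 0.156). The TPM2 call was lost without either HLF Inject-Embed replicate, HLF Mix-Embed replicate 1, Huh7 Inject-Embed replicate 2 or Huh7 Mix-Embed replicate 2 (-0.25 to -0.16, adjusted p of 0.144 to 0.367).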

How the results depend on the processing

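Of 267 called member values over the 12 comparisons, 207 kept their direction and their call under every alternative run. Of 3406 recomputed values 3174 kept both, 229 kept the direction and lost the call, and 3 reversed. All 3 were ACTN4 in Huh7 Mix-Embed against HLF Mix-Embed, at -0.01 with library totals alone and with limma at either pseudocount, against 0.22 in the reported fit. Counts of members called moved by over 1.5 times in 4 cases: Huh7 Mix-Embed against 2D gave 12 with limma on log2(FPKM + 0.1), and HLF Inject-Embed against HLF Mix-Embed gave 5 with that setting, 6 with limma on log2(FPKM + 1), and 6 to 8 with a library left out, the 6 being without HLF Inject-Embed replicate 2. The cause was not tested. Leaving out each library in turn gave 18 to 22, 13 to 18, 16 to 18 and 24 to 25 members in the 4 comparisons with 2D, 13 to 15 in Huh7 Inject-Embed against Mix-Embed, 33 to 36, 35 and 33 to 36 between the lines in 2D, Inject-Embed and Mix-Embed, and 20 to 23, 16 to 20 and 6 to 8 for the line differences. A lone library left in a group is assumed to vary like the other groups.

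With the replicate number as a block the counts were 19, 18, 18 and 26 in the comparisons with 2D, 16 and 10 between the gel cultures of Huh7 and HLF, 35, 35 and 34 between the lines in 2D, Inject-Embed and Mix-Embed, and 21, 21 and 9 for the line differences. The block ended 6 calls. Deviations of same-numbered libraries correlated between -0.024 and 0.022 over all tested genes, so no pairing was seen on that scale. An effect shared by fewer genes could be missed. At these depths 3 counts are 0.178 to 0.255 CPM, which limits ACTA2, LMOD1 and CNN1 in Huh7 and MYH14 in HLF.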
